A study of Mus musculus with 6 samples.

Results

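Genes of blood vessels were followed in whole tibialis anterior (TA) muscle of the mouse after knockdown of Yap. They were chosen by symbol and comprise 8 genes of endothelial cells (Pecam1, Cdh5, Kdr, Flt1, Tek, Tie1, Eng and Vwf) and 2 ligands of the Vegf receptors (Vegfa and Vegfb). All 10 were present among the 13226 genes of the deposited count table. Male C57BL/6 mice aged 8 weeks received AAV6:Yap-shRNA in the TA muscle of a hindlimb and a control vector in the opposite TA, and both muscles were excised after 7 days, giving 3 control and 3 Yap-shRNA muscles from 3 animals. AAV6 is a serotype of adeno-associated virus that enters muscle fibres readily, and the shRNA (short hairpin RNA) it carries lowers the transcript that it matches. The vector field names AAV6:LacZ-shRNA as the control, whereas the sample titles speak of an empty vector, so these muscles are called control. The shRNA plasmid carried a CMV promoter, which is active in many cell types, and eGFP. The RNA came from the whole muscle, and which of its cells took up the vector was not measured.

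Endothelial cells line the capillaries that run between muscle fibres. They sense Vegf, a secreted growth factor that muscle fibres and other cells release, through receptor tyrosine kinases on their surface, and the angiopoietin receptors Tek and Tie1 keep the resting vessel stable. Yap has no DNA-binding domain and acts on genes through TEAD transcription factors, and in endothelial cells of growing vessels it is known to act downstream of Vegf. In RNA from whole muscle, fewer endothelial cells and less RNA per endothelial cell cannot be told apart.

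The start regions of the receptor pair Kdr and Flt1 are printed because these receptors take the Vegf signal and because endothelial genes are commonly driven by ETS factors, whose core motif is GGAA. Both sequences are the 250 bases before the annotated start, 5′ to 3′ on the minus strand of chromosome 5, from RefSeq on GRCm38.p6 (Kdr at chr5:75978456-75978705 and Flt1 at chr5:147726012-147726261), and capitals mark GGAA or its reverse complement TTCC.
Kdr: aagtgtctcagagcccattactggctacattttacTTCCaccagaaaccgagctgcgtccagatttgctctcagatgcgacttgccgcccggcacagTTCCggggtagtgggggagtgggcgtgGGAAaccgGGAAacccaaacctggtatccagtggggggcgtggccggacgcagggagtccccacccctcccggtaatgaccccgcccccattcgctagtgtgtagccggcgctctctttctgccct
Flt1: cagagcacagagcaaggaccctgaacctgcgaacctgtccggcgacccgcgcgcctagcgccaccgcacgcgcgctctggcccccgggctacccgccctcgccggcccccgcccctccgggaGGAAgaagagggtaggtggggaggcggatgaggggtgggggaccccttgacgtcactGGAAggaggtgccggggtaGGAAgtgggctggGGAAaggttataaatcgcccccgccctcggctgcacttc

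Each of the windows held 4 matches to the ETS core. The motif was found in 93.4% of all 32851 promoter windows of that length, with a median of 3 matches, so its presence is common. A total of 8 windows were matched for 7 members (Eng, Flt1, Kdr, Tek, Tie1, Vegfb and 2 starts of Vegfa), and they held from 1 (Vegfb) to 7 (Tie1) matches. The TEAD motif GGAATG or its reverse complement CATTCC, which contains the ETS core, was in 0 of these 8 windows and in 12.6% of all windows. Such matches describe the letters of the window only.

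The knockdown was visible in the counts. Yap1 (chr9:7931999-8004596, minus strand, GRCm38) stood at 71.2, 65.3 and 68.4 CPM (the count scaled to library size by edgeR's TMM method) in control muscles 1 to 3 and at 32.0, 23.9 and 39.5 CPM in Yap-shRNA muscles 1 to 3. All 3 Yap-shRNA muscles lay below all 3 control muscles, at 46.5% of the control mean (log2 fold change -1.10, standard error 0.16). The exact permutation test gave p = 0.10, the smallest that 3 against 3 muscles allow. This and the later exact permutation tests left out the pairing of muscles within animals. The libraries held 11987167 to 12710393 counts. The test across 13113 genes, the quasi-likelihood test of edgeR adjusted by Benjamini and Hochberg, called 0 genes at an adjusted p under 0.05 (0% of the genes tested), so that Yap1 was not called either (adjusted p 0.323), and 211 genes (1.61%) had an unadjusted p under 0.05. DESeq2 called 5 genes, and Yap1 but no endothelial or Vegf gene of the 10 was among them.

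At 7 days, with Yap1 lowered, the endothelial genes and the Vegf ligands were found at levels close to those of control muscle. The log2 fold changes of the 10 genes ran from -0.21 for Vwf to 0.07 for Tek, with 7 above and 3 below 0. None of the 10 passed the test against the spread between muscles: 0 were called, 0 had an unadjusted p under 0.05, and the adjusted p of each was 1.00 by edgeR's quasi-likelihood test. The 2 groups overlapped for all 10, beside 5.27% of all genes tested whose groups did not overlap. The 95% intervals of the 10 fold changes reached down to 0.724-fold (Vwf) and up to 1.34-fold (Vegfb), so larger changes in mean level lay outside the intervals. The median log2 fold change of the 8 endothelial genes was 0.019, beside -0.0025 over all genes tested.

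**Figure D1:**
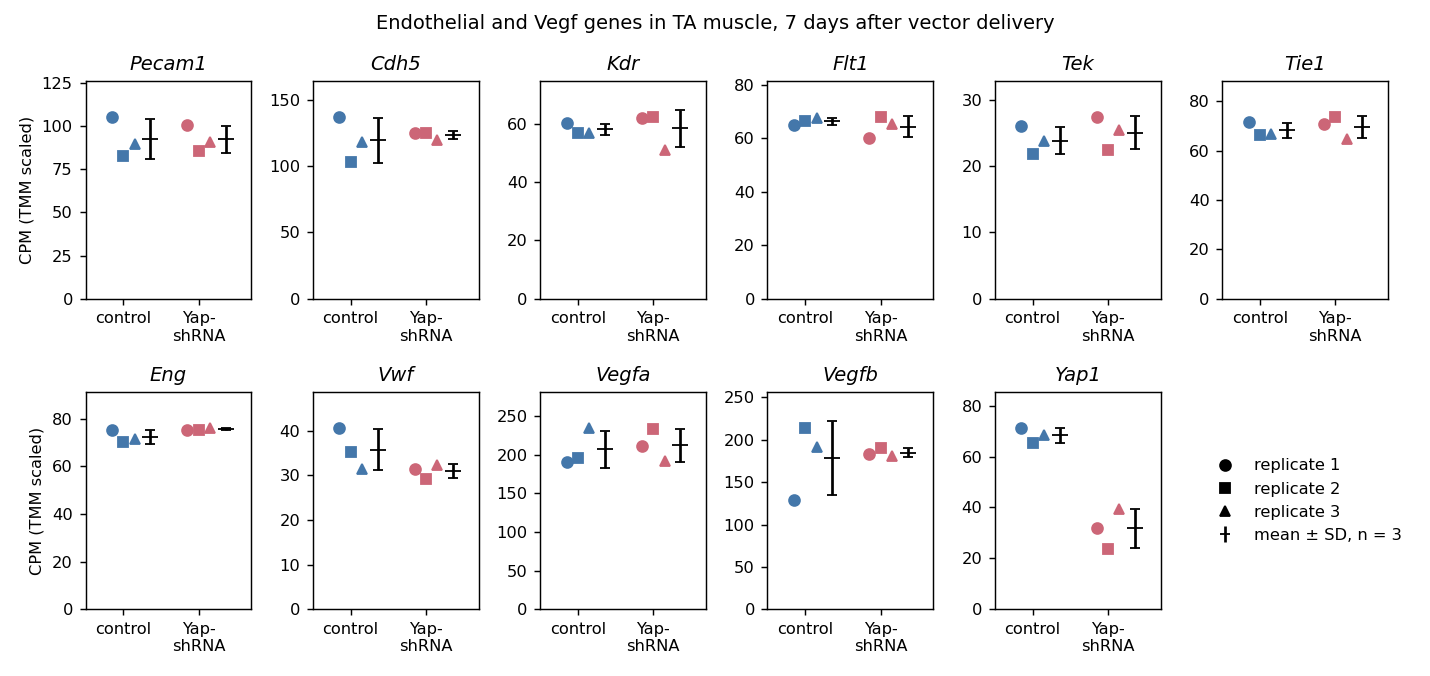
TMM-scaled CPM (y axis, from 0, a separate scale for each gene) of the 10 endothelial and Vegf genes and of Yap1 in 3 control (blue) and 3 Yap-shRNA (red) muscles; symbols mark the replicate number and black bars the mean ± SD. The groups overlap for each of the 10 genes, and for Yap1 they do not.

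Pecam1 and Cdh5 encode proteins of the contacts between endothelial cells: Pecam1 (CD31) is an adhesion molecule of the immunoglobulin family and Cdh5 is VE-cadherin, the cadherin of adherens junctions. Pecam1 (chr11:106654217-106750628, minus strand) was at 105.2, 82.7 and 89.5 CPM in controls 1 to 3 and at 100.7, 85.6 and 90.8 CPM in Yap-shRNA 1 to 3. The highest and the lowest muscle were both controls, and the means of 92.5 ± 11.5 (SD, n = 3) and 92.4 ± 7.67 CPM (SD, n = 3) nearly coincided (log2 fold change -0.0014, standard error 0.12, 95% interval -0.26 to 0.26). Cdh5 (chr8:104101625-104144511, plus strand) was at 136.7, 103.0 and 118.0 CPM in controls 1 to 3 and at 125.0, 124.9 and 119.9 CPM in Yap-shRNA 1 to 3. Here too the controls spanned the whole range, with control 1 highest and control 2 lowest, and the log2 fold change was 0.05 (standard error 0.11). Within each library, 1.24 to 1.32 Cdh5 reads were counted per Pecam1 read in controls and 1.24 to 1.46 after Yap-shRNA, a ratio that does not depend on how the libraries are scaled.

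Kdr (Vegfr2) is the main signalling receptor for Vegfa, and Flt1 (Vegfr1) binds Vegfa more tightly but signals weakly and also occurs as a secreted form that captures the ligand; Flt1 is the receptor of Vegfb as well. Kdr (chr5:75932827-75978458, minus strand) was at 60.4, 56.9 and 57.0 CPM in controls 1 to 3 and at 61.9, 62.2 and 51.0 CPM in Yap-shRNA 1 to 3. Yap-shRNA muscles 1 and 2 lay above each control and Yap-shRNA muscle 3 below each, so that the mean changed little (log2 fold change 0.0076, standard error 0.11) while the SD was 6.37 CPM against 1.99 CPM in controls. Flt1 (chr5:147561604-147726011, minus strand) was at 65.0, 66.5 and 67.4 CPM in controls 1 to 3 and at 60.1, 67.8 and 65.2 CPM in Yap-shRNA 1 to 3. Flt1 varied little, with a coefficient of variation of 4.27% over the 6 muscles where counting error alone gives about 3.51%, and its log2 fold change was -0.04 (standard error 0.09). The number of Kdr reads per Flt1 read was 0.929, 0.855 and 0.845 in controls and 1.03, 0.917 and 0.783 after Yap-shRNA. The lowest and the highest ratio were both from Yap-shRNA muscles, and the means did not differ beyond that spread (two-sided exact permutation test, p = 0.70, n = 3 per group). The counts are per gene and do not separate the membrane-bound and the secreted form of Flt1.

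Tek (Tie2) is the receptor of the angiopoietins, and Tie1 is a related receptor with no known high-affinity ligand of its own that pairs with Tek. Tek (chr4:94739289-94874976, plus strand) had the fewest reads of the 10 genes, from 261 to 334 per library, and was at 26.0, 21.8 and 23.7 CPM in controls 1 to 3 and at 27.3, 22.4 and 25.4 CPM in Yap-shRNA 1 to 3. Its log2 fold change of 0.07 (standard error 0.12) was the highest of the 10 and yet within the spread, since a single control muscle exceeded both Yap-shRNA muscles 2 and 3. Without Yap-shRNA 1 it was 0.00011. Tie1 (chr4:118471191-118490061, minus strand) was at 71.5, 66.2 and 66.7 CPM in controls 1 to 3 and at 70.5, 73.4 and 64.8 CPM in Yap-shRNA 1 to 3, with a log2 fold change of 0.03 (standard error 0.09). From 0.304 to 0.392 Tek reads were counted per Tie1 read, and both ends of that range were Yap-shRNA muscles.

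Eng (endoglin) is a co-receptor of the TGF-β family that works with Acvrl1 in endothelial cells, and Vwf (von Willebrand factor) is a large glycoprotein that endothelial cells store and release and that platelets bind. Eng (chr2:32646595-32682669, plus strand) was at 75.5, 70.1 and 71.7 CPM in controls 1 to 3 and at 75.5, 75.4 and 76.2 CPM in Yap-shRNA 1 to 3. The 3 Yap-shRNA muscles sat close together (SD 0.428 CPM), and control 1 lay between them, so the groups overlapped by that muscle alone (log2 fold change 0.06, standard error 0.09, two-sided exact permutation p = 0.20). Some exons of Eng lie opposite those of Fpgs on the other strand, and as it is not stated whether counting used strand, the value of Eng is less certain. Vwf (chr6:125546774-125686679, plus strand) was at 40.6, 35.3 and 31.4 CPM in controls 1 to 3 and at 31.4, 29.3 and 32.3 CPM in Yap-shRNA 1 to 3. Vwf had the largest log2 fold change of the 10 in size, with a mean of 31.0 ± 1.55 CPM (SD, n = 3) against 35.8 ± 4.61 CPM (SD, n = 3), with control 3 inside the range of the Yap-shRNA muscles. Its log2 fold change was -0.21 (standard error 0.11, 95% interval -0.47 to 0.05, unadjusted p 0.101, adjusted p 1.00 by edgeR's quasi-likelihood test), and it was -0.11 without control 1 and -0.29 without control 3. Platelets and their precursors carry Vwf too, and 4 of the 7 platelet genes listed were tested. Their summed level was 8.70 to 13.4 CPM in controls and 13.9 to 17.8 CPM after Yap-shRNA, mainly through Pf4, with means of 6.08 and 10.6 CPM. The groups of Pf4 overlapped, with control 1 at 9.10 and Yap-shRNA 1 at 7.97 CPM. For Pf4, edgeR gave a log2 fold change of 0.80 and its quasi-likelihood test an unadjusted p of 0.0323. Mean CPM in control and Yap-shRNA muscles was 1.04 and 1.14 for Itga2b, 2.54 and 2.60 for Gp1ba and 1.21 and 1.64 for Itgb3. Which cells the Pf4 reads came from was not tested, so the higher sum is not a measure of platelets. Of the 4 platelet genes, 0 had groups apart and 0 were called. The part of platelets in the Vwf value was not tested.

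Vegfa is the principal ligand of Kdr, released by muscle fibres among other cells and induced by low oxygen, and Vegfb is a ligand of Flt1 that is abundant in oxidative tissues. Vegfa (chr17:46016993-46032369, minus strand) was at 190.2, 195.8 and 234.4 CPM in controls 1 to 3 and at 211.5, 233.0 and 191.2 CPM in Yap-shRNA 1 to 3. High and low muscles occurred in both groups, and the log2 fold change was 0.04 (standard error 0.12, 95% interval -0.23 to 0.30). Vegfb (chr19:6982473-6987651, minus strand) was at 129.2, 213.8 and 191.4 CPM in controls 1 to 3 and at 183.0, 190.5 and 180.3 CPM in Yap-shRNA 1 to 3. Control 1 held the least Vegfb of the 6 muscles and control 2 the most, a 1.65-fold range that was the widest of the 10 genes, whereas the Yap-shRNA muscles stayed close together (SD 5.28 CPM against 43.8 CPM). The log2 fold change of Vegfb was 0.05 (standard error 0.16), and without control 1 it was -0.13, so that even its sign depended on that muscle. Per Vegfb read, 1.47, 0.915 and 1.22 Vegfa reads were counted in controls and 1.16, 1.22 and 1.06 after Yap-shRNA.

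**Figure D2:**
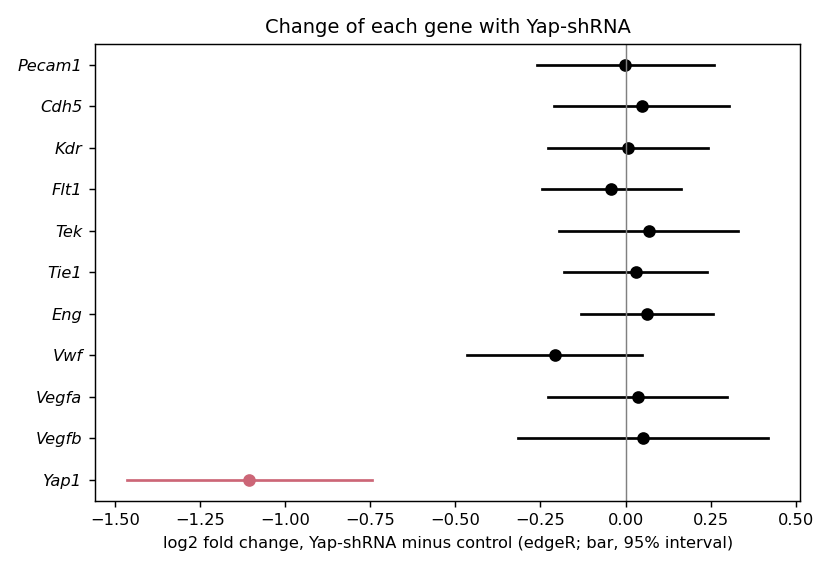
Log2 fold change of each gene, Yap-shRNA minus control (x axis), from edgeR's quasi-likelihood fit of 3 against 3 muscles; dots are estimates and bars 95% intervals. The intervals of the 10 genes all cover 0, from -0.47 at the lowest (Vwf) to 0.42 at the highest (Vegfb), and that of Yap1 (red) runs from -1.46 to -0.75.

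To compare levels between genes, CPM were divided by the length of all annotated exons of the gene in kilobases (CPM per kb, GENCODE M21), in control muscles. The ligands stood highest, Vegfb at 111.0 ± 27.3 CPM per kb (SD, n = 3) and Vegfa at 48.3 ± 5.61, and no muscle's Vegfa level reached the lowest Vegfb level. Cdh5 followed at 28.4 ± 4.02 and Eng at 17.9 ± 0.681 CPM per kb. Pecam1 (14.8 ± 1.85) and Tie1 (13.9 ± 0.595) did not differ beyond the range of the 6 muscles. Kdr (6.43 ± 0.220), Tek (5.06 ± 0.441) and Flt1 (4.91 ± 0.0911 CPM per kb) formed a lower group in which each overlapped its neighbour, and Vwf was lowest at 2.23 ± 0.287. These levels depend on the exons counted as the gene: with the longest protein-coding transcript as the length, Flt1 stood at 9.61 CPM per kb, above Tek at 5.12, and Pecam1 at 26.9, above Eng at 21.2. The order of Vegfb, Vegfa and Cdh5 at the top and Vwf at the bottom was the same with both lengths.

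Muscles of the same group differed from each other, control 1 most. In control 1, 7 of the 8 endothelial genes were above their mean over the 6 muscles (log2 CPM), in control 3 only 1 of 8 was, and in control 2 and Yap-shRNA 3 there were 2 of 8. Yap-shRNA muscles 1 and 2 had 6 and 5 of 8. Summed over the 8 genes, control muscles held 580.8, 502.5 and 525.4 CPM and Yap-shRNA muscles 552.5, 541.0 and 525.4 CPM, so the control group held both the highest and the lowest muscle. Without control 1, the median log2 fold change of the 8 genes was 0.08, and Cdh5, Eng and Vegfb had groups that no longer overlapped, beside 23.7% of all genes in the same 5 muscles.

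**Figure D3:**
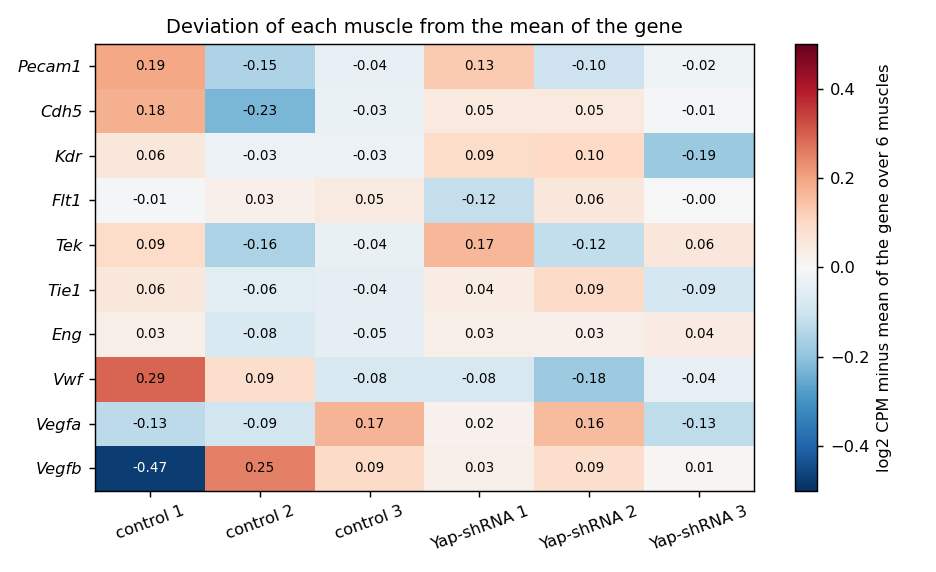
Log2 CPM of each gene (rows) in each muscle (columns) minus the mean of the gene over the 6 muscles; red is above and blue below that mean. Control 1 stands out with high Vwf, Pecam1 and Cdh5 and with low Vegfb, which at 129.2 CPM is the lowest of the 6 muscles.

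The endothelial genes followed each other only in part. Each was compared with the mean of the other 7 by Pearson's r of log2 CPM over the same 6 muscles. This is a description, since the muscles share animals and groups and all genes were read from the same 6 libraries. Pecam1 (r = 0.87) and Cdh5 (0.83) followed the rest most closely, Eng (0.55), Tek (0.53) and Tie1 (0.53) less so, and Kdr (0.32) and Vwf (0.23) little. Flt1 went the other way (-0.54), within its narrow range. Vegfb stood opposite to the 8 genes (-0.92), and 98.3% of all genes had a higher r than Vegfb. The endothelial surface genes listed ran from -0.92 (Emcn) to 0.94 (Clec14a), and the muscle fibre genes from -0.93 (Myh4) to -0.05 (Mylpf). Vegfa was at -0.23. Without control 1 the values of Vwf (-0.78) and Vegfa (0.32) changed sign. Those of Pecam1 and Cdh5 were then 0.73 and 0.69, and that of Vegfb was -0.73. The order of the others also turned on single muscles: without control 2 the r of Vwf was 0.63, of Eng 0.29 and of Tek 0.35, and without Yap-shRNA 2 that of Tie1 was 0.87. Among the genes outside the 10 with the highest r to the mean of the 8 were Tanc1 and Adamts1 (each 0.99) and Map3k8, Jag1 (a Notch ligand), BC005537, Dhtkd1, Pxdn, Edn1 (endothelin, a vasoconstrictor peptide of endothelial cells) and Zfp652 (each 0.98). With 6 muscles high values are common: 6.41% of all genes had an r above 0.80 and 1.99% above 0.90. The share of all genes with a higher r was 3.07% for Pecam1 and 5.21% for Cdh5. It was 21.7% for Eng, 22.7% for Tek and for Tie1, 35.2% for Kdr, 40.2% for Vwf and 76.9% for Flt1. The further vessel genes tested below lay on both sides. They ran from Jag1 (0.98), Nrp2 (0.97) and Clec14a (0.94) to Apold1 (-0.91) and Tcf15 (-0.97).

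Around the 10 genes, 73 further genes of blood and lymph vessels were tested, from 9 lists by function. None was called, 2 had an unadjusted p under 0.05, and for 3 the Yap-shRNA muscles all lay above the controls and for 1 below, in all 4 of 73 beside the 5.27% of all genes given above. Their median log2 fold change was 0.0076, with 40 above and 33 below 0. Klf4, a transcription factor that endothelial cells raise under flow and that other cells make too, was at 10.2, 7.95 and 7.31 CPM in controls 1 to 3 and at 10.2, 12.1 and 14.99 CPM in Yap-shRNA 1 to 3 (log2 fold change 0.55, standard error 0.19, unadjusted p 0.0170, adjusted p 1.00 by edgeR's quasi-likelihood test). Hey1, a target gene of Notch, was at 5.99, 5.44 and 5.75 CPM in controls 1 to 3 and at 4.03, 4.99 and 4.39 CPM in Yap-shRNA 1 to 3 (log2 fold change -0.36, standard error 0.17). The remaining genes with groups apart, picked out after their values were seen, were the Notch ligand Jag2 (log2 fold change 0.25) and the transcription factor Sox18 (0.12). For Klf4 the groups nearly touched at control 1 and Yap-shRNA 1, and none of the 4 passed the adjustment.

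Of the other Vegf ligands and receptors, all 6 on the list were tested (Vegfc, Vegfd, Pgf, Flt4, Nrp1 and Nrp2), with log2 fold changes from -0.03 for Nrp2, a co-receptor, to 0.27 for Vegfd, listed under its older symbol Figf, and a median of 0.14. The 4 genes tested from the list of angiopoietins and related genes ran from -0.13 (Angptl1, an angiopoietin-like gene) to 0.06 (Angpt1, the agonist of Tek). Among 14 surface genes of endothelial cells the values lay between -0.13 for Icam2 and 0.17 for Cldn5, a protein of tight junctions, with a median of 0.0045. The 11 endothelial transcription factors had a median of -0.01 and ran from -0.33 (Mecom) to 0.55 (Klf4), and the 12 genes of muscle capillaries a median of -0.02, from -0.32 (Rbp7) to 0.31 (Rgcc). Those of TGF-β and BMP signalling, which includes the partners of Eng, had a median of 0.05 over 10 genes, from -0.06 (Id3) to 0.25 (Smad6), and the 8 Notch genes a median of 0.12, from Hey1 to Notch1 (0.28). The 3 leukocyte adhesion genes ran from -0.38 (Selp) to 0.18 (Icam1), and the 5 lymphatic genes from -0.14 (Prox1) to 0.60 (Pdpn, which fibroblasts also make), with a median of -0.05 and 3 of 5 below 0. Summed, the lymphatic genes stood between 12.6 and 14.1 CPM in controls and between 15.3 and 19.3 CPM after Yap-shRNA, mainly through Pdpn, with means of 5.16 and 7.84 CPM. The groups of Pdpn overlapped, with control 1 at 6.77 and Yap-shRNA 1 at 5.45 CPM, and 0 of the 5 lymphatic genes had groups apart.

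The 14 genes of oxygen sensing and of Vegfa induction had a median log2 fold change of 0.07. Slc2a1, the glucose transporter Glut1, was at 7.55, 6.86 and 8.70 CPM in controls 1 to 3 and at 9.56, 9.14 and 11.005 CPM in Yap-shRNA 1 to 3, apart from the controls (log2 fold change 0.36, unadjusted p 0.0477, adjusted p 1.00 by edgeR's quasi-likelihood test). Pgk1, a glycolytic enzyme that low oxygen also raises, had the lowest value of the list at -0.19. Of the 6 target genes of Yap listed for endothelial cells, which other cells of muscle express too, none was called. Their median log2 fold change was 0.07, with 4 above and 2 below 0. Ankrd1 was highest, at 34.9, 10.5 and 10.3 CPM in controls 1 to 3 and at 30.4, 27.1 and 40.3 CPM in Yap-shRNA 1 to 3, with control 1 among the latter. Ajuba was lowest at -0.05, and Ctgf (-0.02) and Cyr61 (0.0061) lay near 0.

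**Figure D4:**
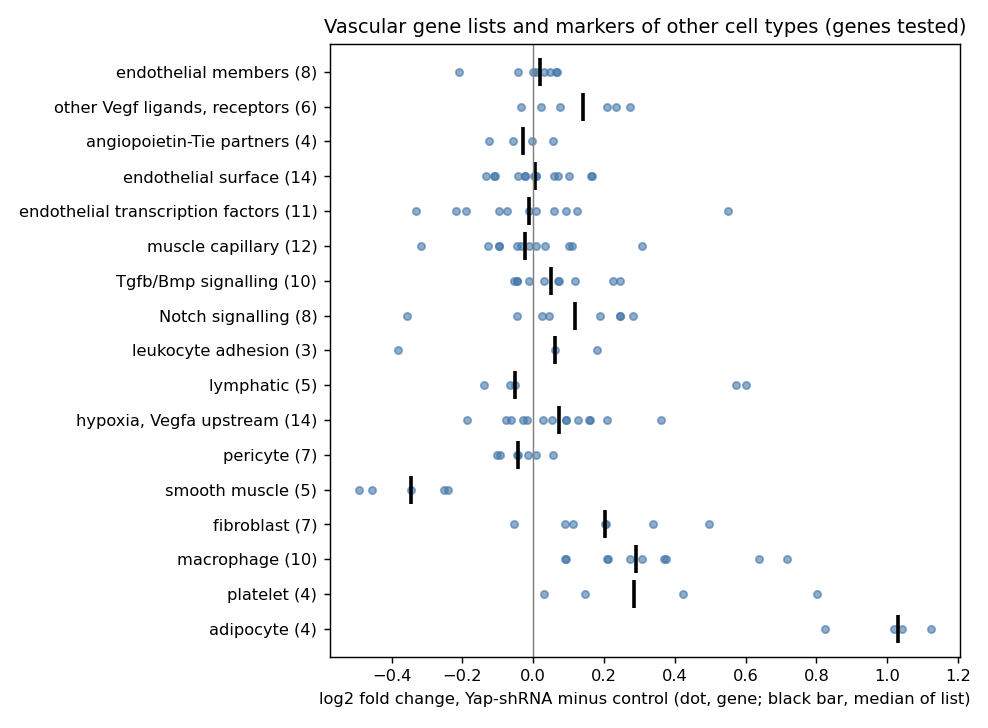
Log2 fold change, Yap-shRNA minus control (x axis), of single genes (dots) and the median of each list (black bars), with the number of genes tested in brackets. The endothelial genes centre near 0 (median 0.019), the smooth muscle genes all lie below 0, the macrophage, platelet and adipocyte genes all above, and none of the genes shown was called.

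Transcripts of the cells beside the endothelium were present in every muscle. The 7 pericyte genes, of the cells that wrap capillaries, summed to 687.7 to 898.8 CPM in control and 712.2 to 781.5 CPM in Yap-shRNA muscles (median log2 fold change -0.04), from -0.10 (Anpep) to 0.06 (Notch3), and control 1 was highest, as it was for the 8 endothelial genes. The 5 smooth muscle genes ran from 127.1 to 227.4 CPM in control muscles, highest in control 2, and from 89.5 to 164.1 CPM in Yap-shRNA muscles, and all 5 had a log2 fold change below 0, from -0.49 (Acta2) to -0.24 (Myh11), without a call. Macrophage genes (10 tested) summed to 96.5 to 234.1 CPM in controls, again highest in control 1, and to 167.1 to 217.6 CPM after Yap-shRNA, from 0.09 (Cd14) to 0.72 (Cd68). Those of fibroblasts summed to 1653 to 2833 and 1953 to 3418 CPM, from -0.05 (Lum) to 0.50 (Cd248), and those of adipocytes to 13.0 to 23.0 and 14.3 to 82.0 CPM, from 0.82 (Retn) to 1.13 (Adipoq), the high end being Yap-shRNA 3. Red cell genes summed to 120.0 to 203.1 and 101.0 to 242.5 CPM, from 0.0093 (Hba-a2) to 0.15 (Hbb-bt), and platelet genes ran from 0.03 (Gp1ba) to 0.80 (Pf4). The 7 muscle fibre genes, from -0.17 (Mylpf) to -0.02 (Myh4), took 124278 to 151891 CPM of a library. The part of these cells in the values of the endothelial genes was not tested.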

How the data were processed

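Polyadenylated RNA of 6 TA muscles was sequenced, and the authors deposited a table of raw counts, 1 row a gene, with no normalisation applied. The submitters' processing notes name bcl2fastq 2.20.0.422 and GRCm38; trimming, aligner, counter and strand setting are not given in the sources used here. Every deposited gene had 60 reads or more in total. Chi-square statistics between muscles of a group, divided by their degrees of freedom, were 7.62 to 21.4, above sampling noise, and each muscle was counted as a separate sample. Columns were matched to samples by name.

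After filterByExpr (113 genes removed) and TMM scaling, edgeR 4.0.16 in R 4.3.3 gave the tests (quasi-likelihood, group as the only term, Benjamini-Hochberg adjustment over all genes tested, threshold 0.05). Standard errors were the log2 fold change over the root of the F statistic, and 95% intervals used the fit's degrees of freedom. The test was checked on simulated counts whose spread between muscles followed a common value for all genes. That check does not cover a spread that differs from gene to gene. Log2 CPM had a prior count of 2. Gene positions and lengths came from GENCODE M21 (GRCm38). Alternatives used DESeq2 1.42.0, limma 3.58.1, the likelihood ratio test, other scaling and filters, a replicate block and omission of each muscle.

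The genes and lists were chosen with earlier results of these data known. Genes named were the 10 members, Yap1, the highest and lowest of each list by log2 fold change, any called gene in a list, and the 10 genes of highest r, of which 1 is not reported here. Other named genes were chosen after their values were seen.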

Additional observations from a re-analysis of the deposited data

How the results depend on the processing

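No endothelial or Vegf gene was called under any setting tried (smallest adjusted p 0.752), and of 130 pairs of gene and setting 112 kept the sign and 18 changed it. Pecam1 took a log2 fold change of 0.00026 with upper-quartile scaling, 0.0023 with DESeq2, 0.0027 with limma-voom and 0.0028 with the replicate block. With each muscle left out in turn, it ran from -0.076 to 0.10 for Pecam1, -0.048 to 0.16 for Cdh5, -0.041 to 0.095 for Kdr, -0.081 to 0.0050 for Flt1, -0.011 to 0.079 for Tie1, -0.038 to 0.13 for Vegfa, -0.13 to 0.20 for Vegfb, 0.040 to 0.094 for Eng, 0.00011 (without Yap-shRNA 1) to 0.14 for Tek and -0.29 (without control 3) to -0.11 (without control 1) for Vwf. Over the same omissions the median of the 8 endothelial genes ran from -0.024 to 0.080 (highest without control 1), the number of the 10 genes with groups apart, a count added after seeing the data, from 0 to 3 (3 without control 1, beside 23.7% of all genes, 2 without Yap-shRNA 3, beside 11.8%, and 1 each without control 3, beside 10.5%, and Yap-shRNA 2, beside 12.8%), and the number of genes called over all genes from 0 to 1 (1 without control 1 and 1 without Yap-shRNA 3). DESeq2 and the likelihood ratio test called 5 genes each, Yap1 at -1.10 in both (adjusted p 5.85e-07 and 1.72e-06), and the other settings with all 6 muscles called 0; the cause was not tested. The design text pairs muscles within animals, but no label says that the number is the animal. Deviations of same-numbered muscles correlated at -0.06, 0.23 and -0.27 across genes, and the replicate block left the count of calls at 0 and the median of the 8 genes at 0.016. Reads per library limit Tek most, where counting error alone is about 5.74%; for the 10 genes the half-width of the 95% interval was 0.19 to 0.37 on the log2 scale.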
